A study of Mus musculus with 4 samples.

Results

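The genes described here are 7 genes of MHC class II antigen presentation: the chain genes H2-Aa, H2-Ab1 and H2-Eb1, the invariant chain gene Cd74, the peptide exchange genes H2-DMa and H2-DMb1, and the transactivator gene Ciita. They were taken by name from a table of 22417 genes, of which 12461 had at least 1 count, and each of the 7 had counts in at least 1 library. The counts are ribosome-protected fragments, the short pieces of mRNA that a translating ribosome shields from nuclease, so they reflect mRNA abundance and ribosome occupancy together. There were 2 libraries from mice with a conditional knockout of Nat10 (cKO), the gene of the RNA cytidine acetyltransferase, and 2 from wild-type (WT) mice. All 4 came from bone-marrow-derived monocytes given RANKL for 3 days to form osteoclasts. The sources used here name neither the Cre line or promoter behind the knockout nor the strain and age of the mice. Nothing tells whether replicates are separate mice or cultures, so p-values measure only the spread between these libraries, which may be technical. The 7 genes were chosen by their counts in these same cKO and WT libraries. Their differences between the genotypes are therefore given as a description without a test.

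MHC class II molecules are pairs of an alpha and a beta chain that show peptides from endocytosed proteins to CD4 T cells. H2-Aa and H2-Ab1 encode the alpha and beta chains of the mouse I-A molecule, and H2-Eb1 encodes the beta chain of I-E. The invariant chain, encoded by Cd74, binds new pairs in the endoplasmic reticulum, blocks their groove and guides them to endosomes. There proteases cut it down to a fragment that H2-DM, the product of H2-DMa and H2-DMb1, exchanges for peptide. Ciita encodes the transactivator that class II promoters need, and it is recruited by factors bound to short promoter elements called the X box and the Y box. Macrophages make class II strongly after interferon gamma, and monocytes lose it as they become osteoclasts.

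Promoters in which X box and Y box letters were found as a pair are shown for 3 of the genes, since Ciita acts through such elements. RefSeq promoter sequences (assembly GRCm38.p6) were matched by symbol for 4 of the 7 genes, H2-Aa, H2-Eb1, H2-DMb1 and H2-DMa, the last with 2 annotated starts. The sequences are the 120 bases before the annotated start, on the strand of the gene, 5′ to 3′. Capitals mark the X box letters CTNGNAACT, then the Y box letters ATTGG.
H2-Aa: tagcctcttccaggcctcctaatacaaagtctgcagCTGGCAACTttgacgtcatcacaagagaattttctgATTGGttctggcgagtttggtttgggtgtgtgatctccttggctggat
H2-Eb1: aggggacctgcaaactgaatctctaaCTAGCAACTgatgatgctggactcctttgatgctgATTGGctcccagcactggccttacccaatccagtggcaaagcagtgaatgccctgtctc
H2-DMb1: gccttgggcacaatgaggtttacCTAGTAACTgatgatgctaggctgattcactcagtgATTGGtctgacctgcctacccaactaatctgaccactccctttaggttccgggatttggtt
In GRCm38.p6 these are chr17:34287824-34287943 on the minus strand for H2-Aa, chr17:34305747-34305866 on the plus strand for H2-Eb1 and chr17:34153071-34153190 on the plus strand for H2-DMb1.

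The X box began 36 bases before the Y box in H2-Aa and H2-DMb1 and 35 bases before it in H2-Eb1. Counting the annotated start as 0, the X boxes began at -84 in H2-Aa, -94 in H2-Eb1 and -97 in H2-DMb1. From the first base of the X box, 15 of 16 bases were identical between H2-Eb1 and H2-DMb1, 8 of 16 between H2-Aa and H2-Eb1, and 7 of 16 between H2-Aa and H2-DMb1. The letters CTNGNAACT were read from these 3 promoters after they had been seen. A general form, CCNNGNNAC, matched with a Y box 15 to 60 bases after its start only in H2-DMb1 among the 4 genes, where it overlaps the capitals. It also did so in H2-Oa and H2-Ob, the genes of H2-DO, which restrains H2-DM. Neither start of H2-DMa held such a pair.

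On either strand, CTNGNAACT occurred in 4.1% of the 32851 promoters of the table and CCNNGNNAC in 47.4%, while ATTGG occurred in 37.4%. An X box 15 to 60 bases before a Y box occurred in 0.149% of promoters with CTNGNAACT and in 2.46% with CCNNGNNAC. These matches describe letters and are not measured binding sites. H2-DMb1 and H2-Eb1 thus both held the X and Y letters, with the X letters read from these promoters themselves. The cKO and WT counts, given below, overlapped for H2-DMb1, which was low, and did not for H2-Eb1. A link between letters and counts was not tested.

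**Figure D1:**
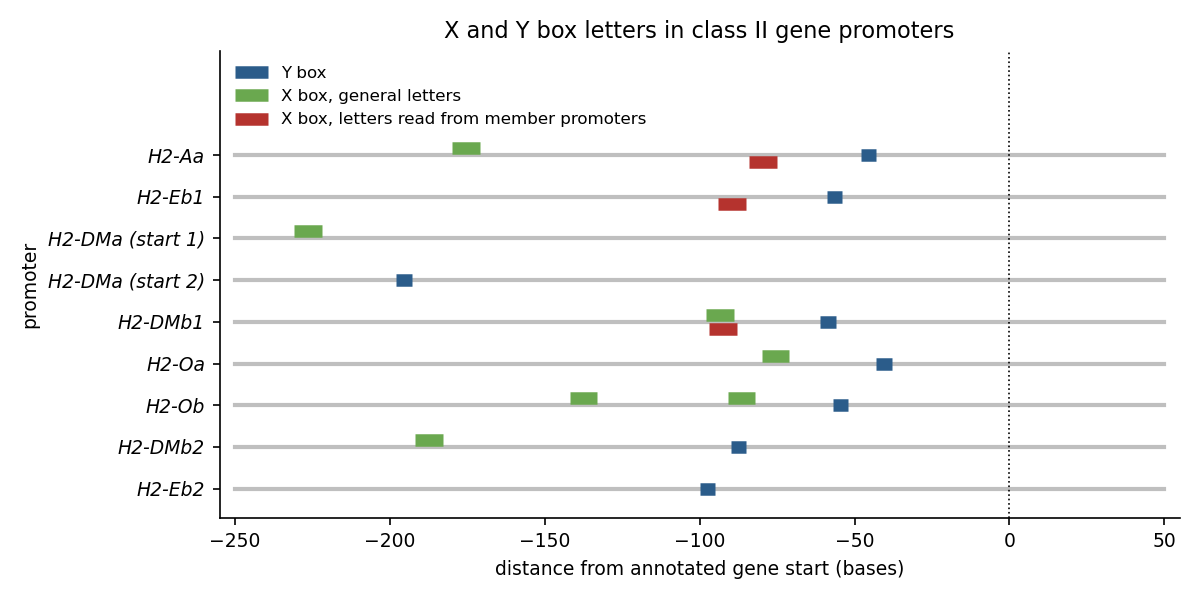
Positions of X box and Y box letters (coloured blocks, strand of the gene) along the promoters of 4 of the class II genes and 4 related ones; the x axis gives the distance in bases from the annotated start (dotted line). In H2-Aa, H2-Eb1 and H2-DMb1 an X box starts 35 or 36 bases before a Y box, and H2-DMa has no such pair at either start.

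Total counts were 1467611 and 1481083 in cKO replicates 1 and 2, against 906937 and 3014620 in WT replicates 1 and 2. Nat10 itself, the targeted gene, had 101 and 72 counts in cKO and 77 and 148 in WT, or 69.3 and 48.5 against 84.9 and 50.8 CPM (counts scaled to a common library total). The ranges overlapped, so these counts do not check the genotype labels, and no source used here names the deleted exons. The cKO pair was more alike than the WT pair, with a chi-square per degree of freedom of 4.28 in cKO against 13.4 in WT. WT replicate 2, though the deepest, had counts in 9402 genes, against 10508 to 10798 in the other libraries. Values without it stand beside some of the results it moves, and the closing section gives ranges over fits without single libraries.

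H2-Aa, the I-A alpha chain gene (ENSMUSG00000036594, GRCm39, chromosome 17, 34501718 to 34506797, minus strand), had 262 and 366 counts in cKO and 24 and 72 in WT. That is 179.7 and 246.7 CPM in cKO against 26.5 and 24.7 CPM in WT, so both cKO libraries lay far above both WT libraries, which were close to each other. The fold was 8.36 (log2 fold change, cKO minus WT, of 3.06, with a standard error, SE, of 0.32). In footprints of bulk samples such as these, more cells carrying class II mRNA, more of it per cell and more ribosomes on it cannot be told apart.

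H2-Ab1, its beta chain partner (ENSMUSG00000073421, chromosome 17, 34476663 to 34488393, plus strand), had 228.4 and 257.5 CPM in cKO against 76.1 and 143.0 CPM in WT, from 333 and 382 against 69 and 417 counts. Both cKO libraries were again above both WT libraries, but the WT libraries were apart. The log2 fold change was 1.12 (SE 0.31), or 2.18-fold. Its size depended on the WT library used: 1.74-fold without WT replicate 1 and 3.23-fold without WT replicate 2.

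H2-Eb1, the I-E beta chain gene (ENSMUSG00000060586, chromosome 17, 34524841 to 34535648, plus strand), had 88 and 73 counts in cKO and 9 and 48 in WT. These are 60.4 and 49.2 CPM in cKO against 9.93 and 16.5 CPM in WT, and the groups did not overlap. The log2 fold change was 2.004 (SE 0.52). The gene of its alpha partner, H2-Ea, which the deposited annotation lists as a polymorphic pseudogene, had 0 counts in every library. A count of 0 allows a level of up to 1.02 CPM in cKO and 0.785 CPM in WT, taking 3 counts over a group as the limit, and covers counting error only.

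Cd74, the invariant chain gene (ENSMUSG00000024610, chromosome 18, 60936920 to 60945724, plus strand), had 638 and 751 counts in cKO and 90 and 381 in WT. In CPM these are 437.6 and 506.2 in cKO against 99.3 and 130.7 in WT, with no overlap. The log2 fold change was 2.02 (SE 0.22), or 4.06-fold.

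The H2-DM genes, unlike the chain genes, overlapped between the groups. H2-DMa (ENSMUSG00000037649, chromosome 17, 34338515 to 34358075, plus strand) had 4 and 5 counts in cKO and 11 and 0 in WT, so all WT counts came from WT replicate 1. Its summed counts gave a ratio of cKO over WT of 1.06, with an exact 95% binomial interval from 0.389 to 2.82, while its mean level was 3.06 CPM in cKO against 6.07 CPM in WT. The fitted fold was 0.545 with no filter on low counts and 0.261 without WT replicate 2, so its size and direction rest on the WT library and the scale used. H2-DMb1 (ENSMUSG00000079547, chromosome 17, 34372046 to 34379204, plus strand) had 5.49 and 7.42 CPM in cKO against 4.41 and 19.2 CPM in WT, from 8 and 11 against 4 and 56 counts. The cKO values lay between the WT values. The log2 fold change was -0.91 (SE 1.20), and it turned to 0.56 without WT replicate 2, which held 56 of the 60 WT counts. H2-DMb1 is a near copy of H2-DMb2, which had 0 and 0 counts in cKO and 1 and 0 in WT, and no source used here tells how reads matching both were counted.

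Ciita (ENSMUSG00000022504, chromosome 16, 10297923 to 10346282, plus strand) was barely covered, with 6 and 6 counts in cKO and 1 and 0 in WT. The ratio of summed counts was 15.6, with a 95% interval from 2.31 to 667. Intervals on counts cover counting error only, since reads from PCR are not independent molecules.

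In 5 of the 7 genes both cKO libraries were above both WT libraries: H2-Aa, H2-Ab1, H2-Eb1, Cd74 and Ciita. The same was true of 19.4% of all genes with at least 1 count and of 22.7% of the genes in the fit. H2-DMa and H2-DMb1 overlapped between the groups. H2-DMa and Ciita had too few counts for the fit. Its filter asked for a level equal to 10 counts in a library of median size, in at least 2 libraries (edgeR). The other 5 entered the fit, 4 with a positive and 1 with a negative log2 fold change. Their median log2 fold change was 2.004, against -0.01 over all 7953 genes in the fit. The 7 genes together took 0.0912% and 0.108% of all counts in cKO and 0.0229% and 0.0323% in WT.

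**Figure D2:**
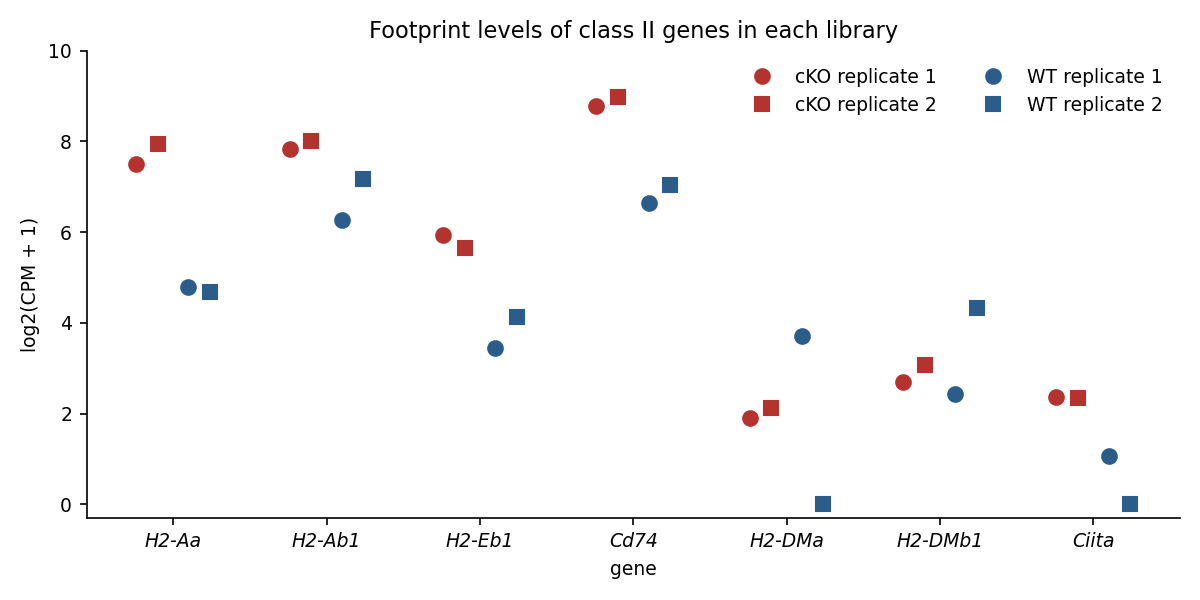
Level of each class II gene in each library, as log2(CPM + 1) on the y axis, with cKO in red and WT in blue (circles replicate 1, squares replicate 2). The 2 cKO points lie above both WT points for H2-Aa, H2-Ab1, H2-Eb1, Cd74 and Ciita, and between them for H2-DMa and H2-DMb1.

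Shares of counts between the class II genes within each library are given as a description, without a test, since the genes were chosen by these counts. Their intervals cover counting error within a library and not the spread between libraries. Coding lengths were not used here, so counts are not compared as levels between genes, only as shares within a library set against the same share in other libraries. Of the counts of H2-Aa and H2-Ab1 together, H2-Aa made up 44.0% and 48.9% in cKO and 25.8% and 14.7% in WT. The exact 95% binomial intervals reached up to 48.1% and 52.6% in cKO and up to 35.9% and 18.2% in WT. The H2-Aa share was thus larger in each cKO library than in the WT pair, and the WT libraries also differed from each other.

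H2-Eb1 made up 20.9% and 16.04% of the counts of H2-Eb1 and H2-Ab1 in cKO and 11.5% and 10.3% in WT. Here the interval of WT replicate 1, 5.41% to 20.8%, took in cKO replicate 2. Cd74 made up a similar part of the counts of Cd74 and the 3 chain genes in each library, 48.3% and 47.8% in cKO and 46.9% and 41.5% in WT. The interval of WT replicate 2, 38.3% to 44.8%, lay just below those of the cKO libraries, which began at 45.6% and 45.3%.

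The H2-DM genes took 1.73% and 1.91% of the counts of the H2-DM and chain genes in cKO and 12.8% and 9.44% in WT. The intervals were 0.895% to 2.997% and 1.10% to 3.09% in cKO, and 7.36% to 20.3% and 7.21% to 12.1% in WT. The share was lower in both cKO libraries, and in WT replicate 1 it came mostly from H2-DMa and in WT replicate 2 wholly from H2-DMb1.

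**Figure D3:**
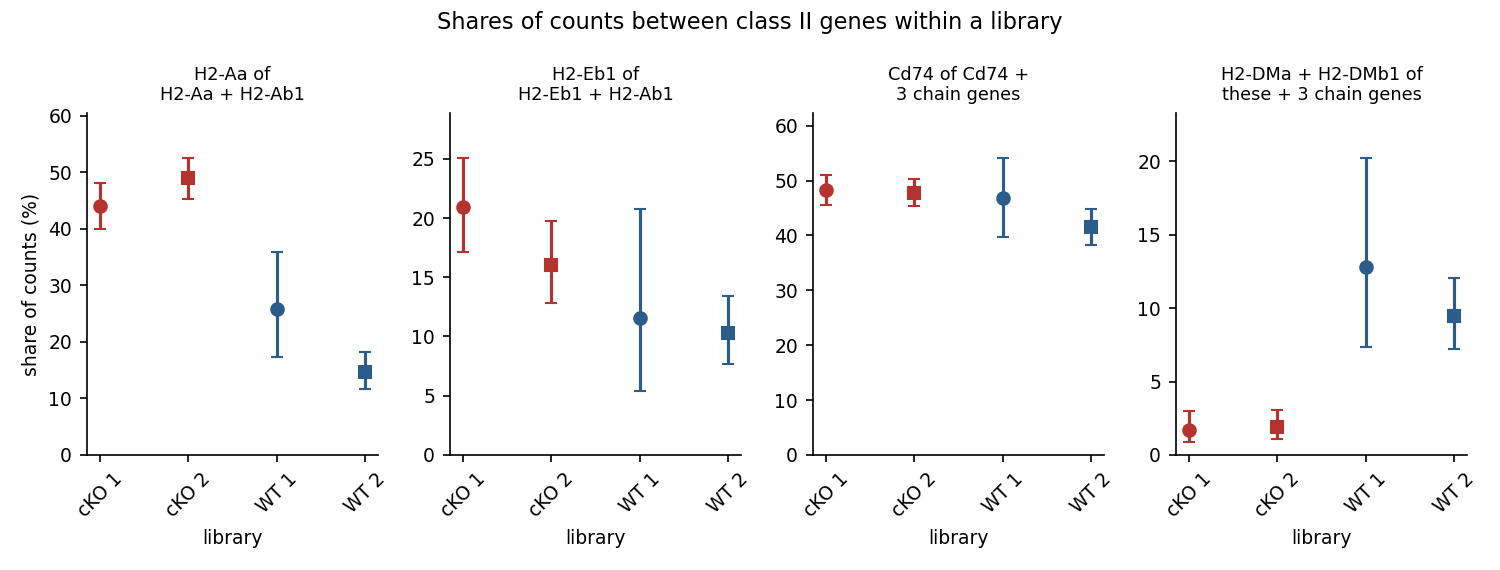
Share of counts (%, y axis) that a class II gene takes of a set of class II genes within each library (x axis), with exact 95% binomial intervals that cover counting error only. The share of H2-Aa is 44.0% and 48.9% in cKO and 25.8% and 14.7% in WT, and that of the H2-DM genes is 1.73% and 1.91% in cKO and 12.8% and 9.44% in WT.

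Of 20 other genes of antigen processing and class II loading, 14 had enough counts to be tested, and 0 rose and 0 fell at an adjusted p under 0.05 (edgeR quasi-likelihood test, Benjamini-Hochberg over all 7953 genes), a threshold that 1.40% of all genes passed, 0.641% higher and 0.754% lower. At an unadjusted p under 0.05, which 12.1% of all genes passed, 2 were higher and 4 lower in cKO. The median log2 fold change was -0.24, against -0.01 over all genes, with values from -0.94 for Cd63, a tetraspanin gene of endosomes named after its value was seen, to 0.84 for Marchf1.

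Lgmn, the gene of the asparagine endopeptidase legumain, averaged 1180 ± 22.2 CPM in cKO, against 2197 ± 635 CPM in WT (2 libraries each, SD). Its log2 fold change was -0.90 (SE 0.18, adjusted p = 0.0587 by edgeR), and it passed with DESeq2 (adjusted p = 0.000133). Cd9, a tetraspanin gene, averaged 412 ± 45.9 CPM in cKO, against 712 ± 61.1 CPM in WT (log2 -0.79, SE 0.17, adjusted p = 0.0624 by edgeR and 0.00468 by DESeq2). Both genes were below both WT libraries in both cKO libraries, as were 22.6% of all tested genes. These 2 were the only genes of the list to pass with DESeq2, which called 2.79% of all genes.

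Ctss, the gene of cathepsin S, which finishes the cutting of the invariant chain, was abundant in each library, with 6649 and 7010 CPM in cKO, against 7799 and 8728 CPM in WT (log2 -0.28, SE 0.10, adjusted p = 0.304, edgeR). Marchf1, the gene of a ubiquitin ligase that marks class II for degradation, had 102.9 and 93.7 CPM in cKO, against 54.0 and 55.6 CPM in WT (log2 0.84, SE 0.32, adjusted p = 0.331, edgeR). Ctss and Marchf1 are named after their values were seen. Without WT replicate 1, 2 genes of the list rose and 7 fell, in a fit that called 27.4% of all genes, and without WT replicate 2, 0 rose and 2 fell, where 5.48% of all genes were called. With a CPM of at least 1 in all libraries 0 rose and 2 fell, where 2.48% of all genes were called. With no filter 0 rose and 2 fell, where 2.91% of all genes were called. With the replicate number as a block 0 rose and 1 fell, where 1.80% of all genes were called.

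Of 13 genes of the promoter complex that recruits Ciita and of its co-activators, 10 were tested and 0 rose and 0 fell (edgeR). DESeq2 also called 0 and gave no adjusted p for Rfx5, Nfyb, Creb1, Kat2b and Nlrc5. At an unadjusted p under 0.05 in edgeR, 1 gene was higher. The median log2 fold change was 0.66, with 8 positive and 2 negative values. That gene was Smarca4, the ATPase gene of the SWI/SNF remodelling complex, with 196.2 and 196.8 CPM in cKO, against 137.9 and 113.2 CPM in WT (log2 0.65, SE 0.25, adjusted p = 0.326, edgeR). Crebbp, the gene of the acetyltransferase CBP, had 54.2 and 95.7 CPM in cKO, against 54.0 and 23.0 CPM in WT (log2 1.01, SE 0.51, adjusted p = 0.474, edgeR). Rfxap, a subunit gene of the X box factor RFX, had 10 and 4 counts in cKO and 0 and 0 in WT. With WT set at a limit of 3 counts over the group, its ratio of summed counts, cKO over WT, was 6.06. With the 0 counts found in WT, the 95% interval of this ratio began at 4.31, which covers counting error only. Rfxap was too low to be tested and is named after its counts were seen. Without WT replicate 1, Smarca4 and Crebbp rose, 2 of 10 tested genes in the fit that called 27.4% of all genes.

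Of 18 genes known to act on Ciita transcription, 14 were tested and 0 rose and 0 fell (edgeR), with 1 higher and 2 lower at an unadjusted p under 0.05 and a median log2 fold change of 0.10. Ifngr1, the gene of the ligand-binding chain of the interferon gamma receptor, had 100.8 and 118.6 CPM in cKO, against 245.9 and 174.9 CPM in WT (log2 -0.93, SE 0.27, adjusted p = 0.190, edgeR). Both cKO libraries were below both WT libraries, and the log2 fold change was -1.15 without WT replicate 2. Ifngr1 did not pass with DESeq2 (adjusted p = 0.112). DESeq2, which called 2.79% of all genes, called 1 gene of the list, and that gene rose. Without WT replicate 1, 3 of the 14 genes rose and 1 fell, close to the 27.4% of all genes called in that fit.

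Of 12 surface genes with which antigen-presenting cells act on T cells, 8 were tested, 3 rose and 0 fell (edgeR), where 0.641% of all genes passed in the higher direction. This list was chosen with earlier results of these data known, so the share in it is a description and not a test of the list. Cd40, the receptor gene through which T cells activate antigen-presenting cells, had 196.2 and 235.2 CPM in cKO, against 41.9 and 30.2 CPM in WT. It rose 6.11-fold (log2 2.61, SE 0.31, adjusted p = 0.00632, edgeR). Cd274, the gene of the inhibitory ligand PD-L1, had 869.0 and 686.2 CPM in cKO, against 328.6 and 307.6 CPM in WT, a 2.45-fold rise (log2 1.29, SE 0.18, adjusted p = 0.01 by edgeR). Icam1, an adhesion gene of the contact with T cells, had 618.6 and 581.7 CPM in cKO, against 327.5 and 275.0 CPM in WT (log2 0.998, SE 0.17, adjusted p = 0.0298, edgeR).

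Cd40 and Cd274 passed without any 1 library, while Icam1 missed when cKO replicate 1 was left out (edgeR adjusted p = 0.195) and when cKO replicate 2 was (edgeR adjusted p = 0.0801). Those fits called 0.827% and 0.926% of all genes. Cd86 and Cd80, the genes of the B7 ligands, did not pass. Cd86 had 11.0 and 21.6 CPM in cKO, against 12.1 and 5.14 CPM in WT, and Cd80 had 6.86 and 16.9 CPM in cKO, against 21.0 and 31.2 CPM in WT. Icosl, the gene of the ICOS ligand, had 13 and 24 counts in cKO and 0 and 0 in WT. With WT set at a limit of 3 counts over the group, its ratio of summed counts, cKO over WT, was 16.03. With the 0 counts found in WT, the 95% interval of this ratio began at 12.4, which covers counting error only. Icosl did not pass (adjusted p = 0.262, edgeR). Cd86, Cd80 and Icosl are named after their values were seen.

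**Figure D4:**
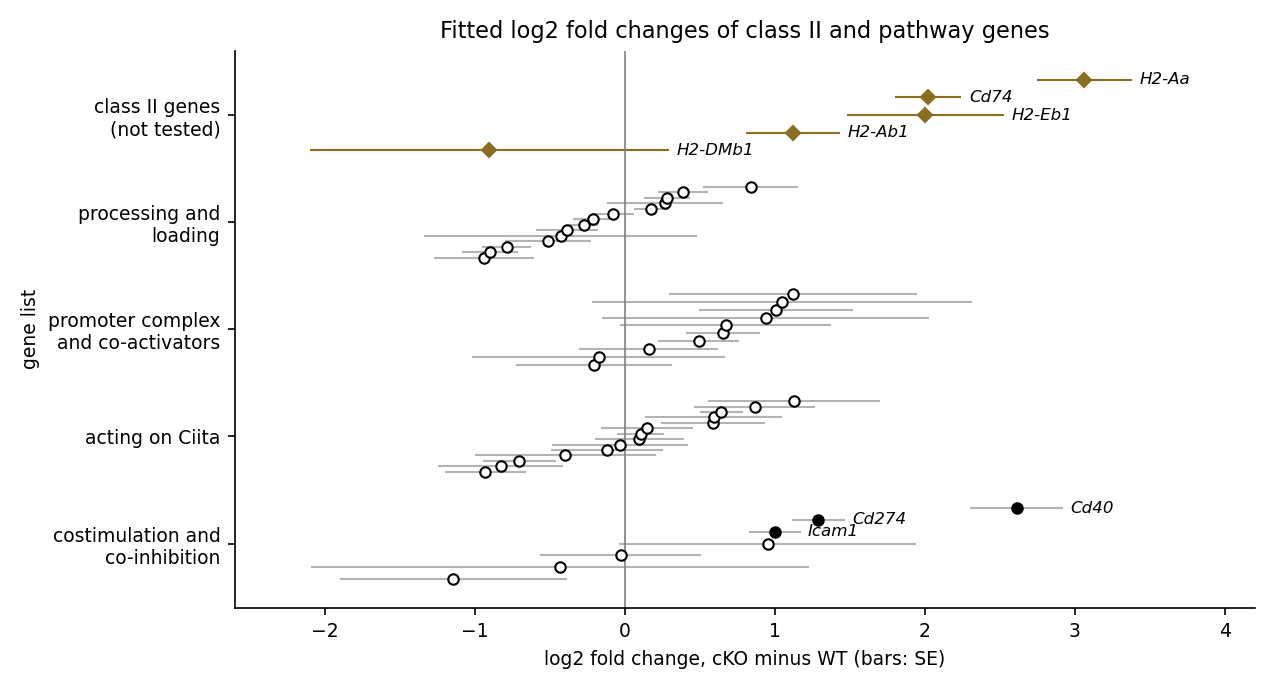
Fitted log2 fold change (cKO minus WT, x axis, bars SE) of the 5 class II genes in the fit (diamonds, not tested) and of the tested genes of 4 pathway lists (circles, filled where edgeR's adjusted p is under 0.05; Icosl is left out because it has 0 counts in WT). Filled circles appear for Cd40, Cd274 and Icam1 alone.

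The 5 class II genes of chromosome 17 lie between 34338515 and 34535648 (GRCm39) with 6 other listed genes. Of these 6, 4 were tested and 0 passed (edgeR), 1 of them with an unadjusted p under 0.05. They are genes of class I presentation: the peptide transporter genes Tap1 and Tap2 and the immunoproteasome genes Psmb8 and Psmb9. Tap1 had 240.7 and 254.8 CPM in cKO, against 132.3 and 66.9 CPM in WT (log2 1.35, SE 0.33, adjusted p = 0.122, edgeR), and Tap2 had 269.5 and 344.4 CPM in cKO, against 296.7 and 260.0 CPM in WT (log2 0.14, SE 0.21). Psmb8 and Psmb9 had log2 fold changes of 0.40 (SE 0.19) and -0.31 (SE 0.67). This region was chosen after the values were seen.

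Several defining markers of other class II-bearing cells had no count, while other genes of the same lists were measured. Of 15 dendritic cell markers 7 had no count in any library: Xcr1, Clec9a, Batf3, Cd209a, Kmo, Snx22 and Clec10a. Flt3 and Zbtb46 had 2 counts and 1 count over the 4 libraries. Summed over the list, there were 96.7 and 95.04 CPM in cKO, against 122.4 and 164.3 CPM in WT, mostly from the integrin gene Itgax (49.4 and 49.9 CPM in cKO, 86.0 and 88.8 CPM in WT) and Relb, a gene of the NF-kappa-B family. Ccr7, the chemokine receptor gene of migrating dendritic cells, had 7 and 9 counts in cKO and 2 and 0 in WT, a ratio of summed counts of 10.4 (95% interval 2.44 to 93.2), and is named after its counts were seen. It was too low to be tested, and the 2 genes tested did not pass.

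Of 12 B cell markers 5 had no count in any library, among them Ms4a1, Cd79a, Blk and Vpreb3. Cd79b and Pax5 had counts in WT replicate 2 alone, 41 and 14. The summed level was 237 and 251 CPM in cKO, against 187.5 and 182.1 CPM in WT. Most of it was Blnk, an adaptor gene that macrophages express too, with 235.9 and 244.0 CPM in cKO, against 162.1 and 136.5 CPM in WT. Ighm, next in WT, ran the other way, with 1.37 and 3.37 CPM in cKO, against 23.16 and 26.75 CPM in WT (log2 -3.36, SE 0.98). The 2 genes tested did not pass. Of 12 T and NK cell markers 10 had no count, among them Cd3e and Ifng, the gene of interferon gamma, and the list summed to 3.43 and 7.42 CPM in cKO, against 2.21 and 0.343 CPM in WT. Its 2 genes with counts were Cd4, with 5 and 11 counts in cKO and 0 and 1 in WT, and Lck, with 0 and 0 in cKO and 2 and 0 in WT.

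Markers of the cultured lineage were abundant in each library. The 12 monocyte and macrophage genes summed to 17300 and 15870 CPM in cKO, against 20070 and 23380 CPM in WT, led by Adgre1 (F4/80) and Csf1r, the M-CSF receptor gene, which was the 1 gene of the list that passed and fell (log2 -0.80, SE 0.11, adjusted p = 0.012, edgeR). Most of the sum was Adgre1, while 7 of the 12 genes had a positive log2 fold change, with a median of 0.20. The complement genes C1qa, C1qb and C1qc and the mannose receptor gene Mrc1 had both cKO values above both WT values and did not pass (log2 0.68 for C1qb to 1.25 for Mrc1). These 4 are named after their values were seen. The 10 osteoclast genes, led by Mmp9 and Acp5, summed to 8638 and 8013 CPM in cKO, against 12760 and 13560 CPM in WT, and 1 of them fell, Mmp9. The 13 stromal and osteoblast genes, led by Col1a1 and Col1a2, summed to 596 and 568 CPM in cKO, against 4372 and 5754 CPM in WT, and 6 of the 10 tested fell. Both cKO values were below both WT values in 8 osteoclast and 8 stromal genes, against 22.6% of all tested genes. Both were above in Calcr (12 and 14 against 2 and 3 counts), an osteoclast gene, as in 22.7% of tested genes. Runx2 (13 and 19 against 4 and 0) and Pdgfrb (34 and 19 against 8 and 5), stromal genes, did the same. Calcr, Runx2 and Pdgfrb did not pass and are named after their values were seen. Summed osteoclast and stromal levels thus ran opposite to the class II genes between the same libraries. Their part in the class II values was not tested.

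**Figure D5:**
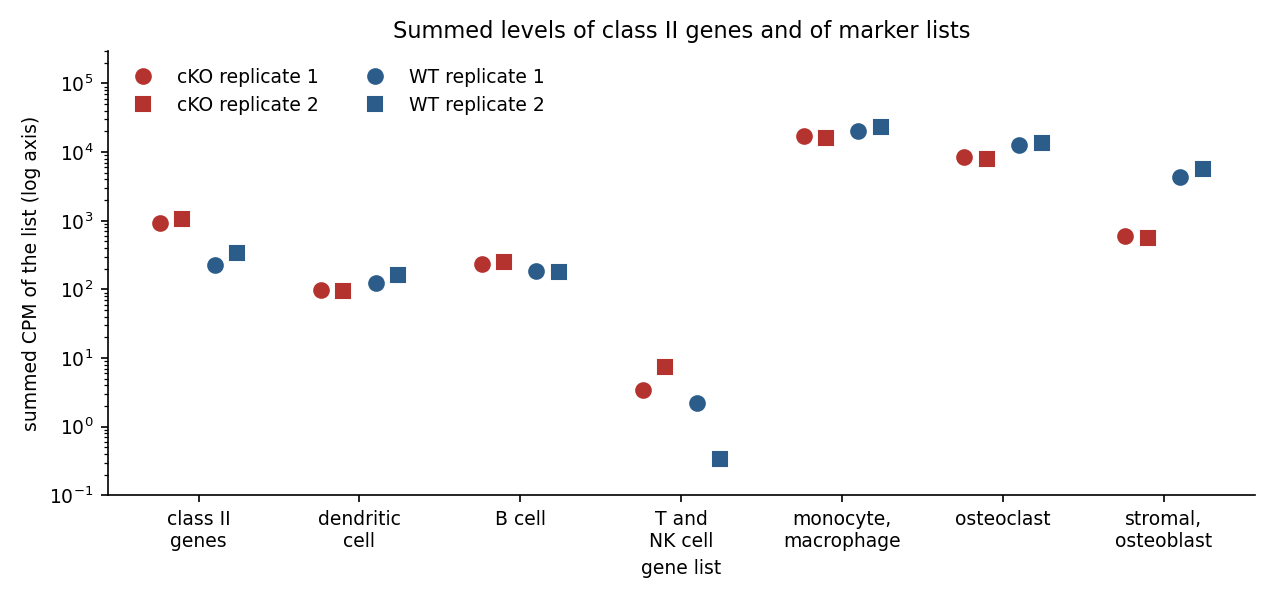
Summed CPM (y axis, log scale) of the class II genes and of 6 marker lists in each library, cKO in red and WT in blue. Class II genes sum to 918 and 1074 CPM in cKO, against 229 and 334 CPM in WT, while the stromal and osteoblast list sums to 596 and 568 CPM in cKO, against 4372 and 5754 CPM in WT.

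The genes with the profile most like that of the 7 genes were found among 8393 genes of at least 5 CPM on average. Likeness was the root mean square difference over the 4 libraries between a gene's centred log2(CPM + 1) and the mean centred profile of the 7 genes, which was 0.61 and 0.77 in cKO and -0.62 and -0.77 in WT. The 8 nearest were Maff (difference 0.0429), Ndrg3, Usp18, Lcp2, Ifit3, Ifih1, F10 and Map3k5 (0.111), against a median of 0.861 over all genes compared. Usp18, Ifit3 and Ifih1 are interferon-stimulated genes, and Maff encodes a small Maf transcription factor. The profile comes from the values by which the 7 genes were chosen, so nearness to it is a description. The share of interferon-stimulated genes among all genes compared was not examined. Usp18 had 396.4 and 389.6 CPM in cKO, against 162.1 and 139.9 CPM in WT.

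That profile is an average in which the H2-DM genes offset the others. With the 3 genes that had at least 10 counts in every library, H2-Aa, H2-Ab1 and Cd74, the nearest were Epcam (0.0938), Cxcl3, Ifit1, Ntng2, Slc19a2, Vnn3, Ifi47 and Ccl3 (0.211), and 0 of the 8 were shared. Cxcl3 and Ccl3 are chemokine genes and Ifit1 and Ifi47 interferon-stimulated genes, and the share of such genes among all those compared was not examined. Cxcl3 had 401.9 and 546.0 CPM in cKO, against 82.7 and 96.0 CPM in WT. Which genes resembled the class II genes thus depended on whether the low-count genes were included.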

How the data were processed

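Ribosome-protected fragments were counted per gene in 2 cKO and 2 WT libraries. The authors deposited raw counts, per the file headers, on GRCm39 per the submitters' processing notes, which name fastp, Bowtie, STAR and HTSeq without versions or order. No source used here gives the counted feature, the strand setting or the handling of multiply matching reads, so counts of near-identical genes are uncertain.

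From these counts, genes were kept by edgeR 4.0.16 (R 4.3.3) filterByExpr (count of 10 and total of 15 as minimums), with TMM scaling, and fitted by quasi-likelihood with genotype as the only term. Adjusted p-values are Benjamini-Hochberg over 7953 genes, threshold 0.05. CPM use TMM-scaled totals. Alternatives were other scalings, filters, DESeq2 1.42.0, the replicate number as a block and leaving out each library. Genes to which DESeq2 gave no adjusted p count as not called in its shares. Deviations of the same-numbered libraries were not correlated over genes (-0.0157). With a single replicate difference per group, this cannot exclude a pairing. Fits were tested on simulated counts.

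The 7 genes and all lists were chosen with earlier results of these data known. Named are the 7, up to 4 list genes past the threshold or the 2 of smallest p, the 8 of nearest profile, markers at 0 and the 2 highest markers of each list; a few that the rule would name are not reported here. Promoter sequences come from RefSeq (GRCm38.p6), whose coordinates differ from those of the deposited table.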

Additional observations from a re-analysis of the deposited data

How the results depend on the processing

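There were 2 libraries per group, and counts of H2-DMa, H2-DMb1 and Ciita were low. The all-gene counts, 51 higher and 60 lower in cKO, became 95 and 95 with a CPM of at least 1 in all libraries, 114 and 108 with DESeq2, and 184 and 179 with no filter. Leaving out single libraries gave 35 to 1354 higher and 38 to 1066 lower, the most without WT replicate 1 and the fewest without cKO replicate 1; without WT replicate 2 there were 250 and 217. Of the 3 pathway lists together, 0 rose and 0 fell, against 1 and 2 with the CPM filter, with DESeq2 and with no filter. With the replicate number as a block 1 fell, Lgmn (adjusted p = 0.0177, edgeR), and the block gave 67 higher and 76 lower over all genes. Leaving out libraries gave 0 to 7 risers and 0 to 8 fallers in these lists. The 3 costimulation genes that rose ranged from 2 to 4, without cKO replicate 1 and without WT replicate 1, with 0 lower throughout. The median log2 fold change of the class II genes in the fit ranged from 1.504 to 1.98 without single libraries, over 5 or 6 genes. H2-Aa ranged from 2.84 to 3.30, H2-Ab1 from 0.80 to 1.69, H2-Eb1 from 1.77 to 2.47 and Cd74 from 1.89 to 2.26. H2-DMb1 ranged from -1.53 to 0.56 and turned positive only without WT replicate 2. No other scaling, filter or tool turned the sign of these 5 genes. Of the 8 genes of nearest profile, 0 were shared when only genes with 10 counts in every library made the profile. The X and Y box pair was found in 1 class II gene with the general X box letters and in 3 with CTNGNAACT, chosen after seeing the data. Apart from the cases where a single library is named, the cause of these shifts was not tested.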
